A study of Homo sapiens with 36 samples.

Results

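Gene expression was compared between ZR-75-1 cells given E2s+PROG and ZR-75-1 cells given PROG alone, with 4 RNA samples in each group. The 8 samples were taken by the group named in their labels, out of 36 samples in 9 groups of 4, and no measured value was used to choose them. By its labels, the comparison asks what estradiol added to progesterone-treated cells in the arm written E2s+PROG. ZR-75-1 is an established human breast cancer cell line of luminal type that carries the estrogen receptor, and each sample was hybridized to an Illumina bead array, on which a probe's brightness reports the amount of 1 transcript.

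PROG stands for progesterone and E2 for estradiol. The labels give E2s+PROG and another group, E2+PROG, the same treatment in words, and do not say what the letter s marks. All cells spent 48 h without phenol red in medium with 10% hormone-stripped serum and were then treated for 16 h. Estradiol alone was used at 10 nM. No dose is given for progesterone, or for the estradiol that was combined with it, so the doses of E2s+PROG, E2+PROG, PROG and E2 may differ. If E2s+PROG and PROG differ in progesterone dose, its effect cannot be told apart from that of estradiol. Besides the 4 PROG and 4 E2s+PROG arrays, the comparisons below use 4 arrays each of ethanol vehicle, E2 and E2+PROG. The remaining groups were given dihydrotestosterone (DHT) or medroxyprogesterone acetate (MPA), alone or with E2, 4 arrays each. Their arrays entered the normalization, the choice of probes and the shared estimate of the spread, but were not compared. All samples come from this 1 line. Whether the replicates of a group were grown apart is not stated, so the p-values below rest on a spread that may be technical only.

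Estradiol enters the cell and binds the estrogen receptor, encoded by ESR1, which then attaches to DNA at estrogen response elements or through other factors and raises or lowers transcription of nearby genes. PGR, which encodes the progesterone receptor, is one of its classical targets in breast epithelium, so that estrogen sets how much receptor a cell has for progesterone. Other long-known estrogen-induced genes of luminal breast cancer cells include GREB1, TFF1, PDZK1, IGFBP4 and MYB.

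On the 8 arrays, 35.6% to 37.2% of probes were above background and the median intensity lay between 121.6 and 215.9. Across genes, arrays correlated within E2s+PROG with r from 0.98 to 0.9925 and within PROG with r from 0.9894 to 0.9941, where genes are not independent replicates. E2s+PROG replicate 4 stood apart: on the component that held 49.36% of the variance within groups it scored -28.3, against 6.22 to 11.4 for the other E2s+PROG arrays and -2.75 to 5.96 for the PROG arrays. It is also the only one of the 8 arrays among columns 13 to 24 of the deposited table, a run of 12 neighbouring columns. The defining markers of the luminal line were present. All 10 of 10 luminal markers, among them KRT8, KRT18, GATA3 and ESR1, were above background on all 8 arrays. Between E2s+PROG and PROG, 0 of them passed the test, beside 1.31% of all genes. KRT5, KRT14, VIM and MYLK, markers of basal cells, were below background on all 8, while CDH3 and ACTA2 of the same list were above it on all 8. Of 9 fibroblast markers, COL1A1 was above background on every array and 6 on none. Of 8 leukocyte and endothelial markers, CD68, CD14 and PECAM1 were above background on all 8 arrays and 3 on none. VWF was above background on 4 of 4 E2s+PROG and 0 of 4 PROG arrays, with a log2 difference of 0.86 and an adjusted p of 0.192. The mean signal of the measured leukocyte and endothelial markers ranged from 6.98 to 7.34 on the E2s+PROG arrays and from 6.96 to 7.17 on the PROG arrays, and its part in the results was not tested.

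Most genes past the threshold were higher in E2s+PROG. Of 12195 genes tested, 160 passed an adjusted p of 0.05 (1.31% of genes), 142 of them higher in E2s+PROG (1.16%) and 18 lower (0.148%). The largest rises were in PDZK1, GREB1, SUSD3, KCNH1 and CYP2B7P, and the largest fall was in ACKR3. Differences are on the log2 scale of normalized signal, where 1 unit is a doubling, and the adjusted p is from limma's moderated test with Benjamini-Hochberg adjustment over all genes. In bulk RNA, a change in the share of cells that express a gene and a change in the RNA per cell cannot be told apart.

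Among the 142 higher genes, 83 rose by more than 1 unit, 17 by more than 2 and 6 by more than 3, and their median difference was 1.12. The 18 lower genes had a median of -0.97, and 9 of them fell by more than 1 unit. The 4 and 4 arrays did not overlap for any of the 142 higher genes and for 17 of the 18 lower ones, whereas 13.5% of all genes tested had arrays that did not overlap. In 26 of the higher genes the PROG signal was not above background on any array, and in 40 on fewer than 4, so that the fold is only a lower bound there. Folds depend on the background correction: without it, 22 of the 42 named genes past the threshold had a fold that differed by more than 1.5 times from the one given below. KCNH1 then rose 3.35-fold, SUSD3 4.33-fold, CYP2B7P 3.03-fold, SPINK4 2.59-fold and PDZK1 11.2-fold, so that each bound written as at least a given fold holds for the corrected signal. Averaging a gene's probes in place of taking the brightest gave 2.45-fold for GREB1, 17.8-fold for PDZK1, 2.55-fold for PPM1K and 1.88-fold for KCNQ3. Fitting the 8 arrays without the other groups gave 298 genes, which held 151 of the 160. Without E2s+PROG replicate 4 there were 128, and under median scaling 114.

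**Figure D1:**
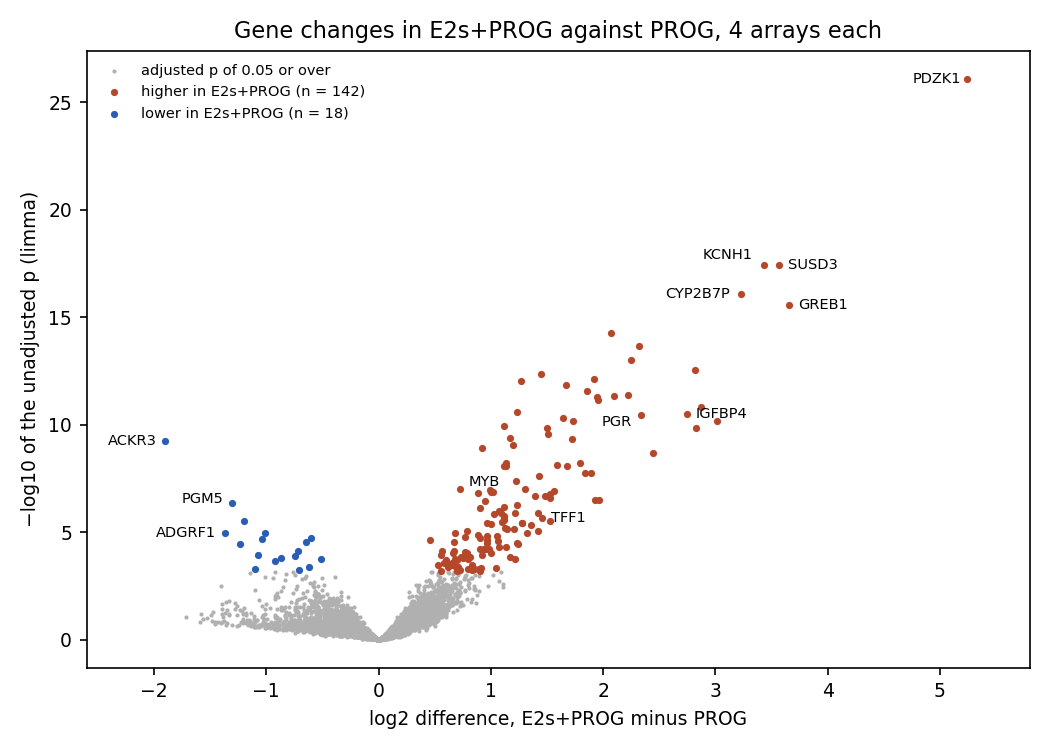
Each point is 1 of the 12195 genes, with its log2 difference (E2s+PROG minus PROG, 4 arrays each) on the x axis and −log10 of limma's unadjusted p on the y axis. Red points are the 142 higher genes and blue points the 18 lower ones at an adjusted p under 0.05; PDZK1 lies farthest right at 5.24 and ACKR3 farthest left among the lower genes at -1.90.

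Known estrogen-induced genes were among those that rose. Of 44 tested members of a list of estrogen-induced genes, 20 were higher and 0 lower, against 1.16% of all genes higher. This and the other lists were chosen with earlier results of these data known, so their shares may in part reflect that choice. A positive difference was found for 42 of 44, beside 6995 of all 12195 genes tested. The list's median was 0.72, beside 0.04 over all genes tested. Without E2s+PROG replicate 4, 19 members were higher.

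PDZK1, a scaffold protein with PDZ domains that anchors membrane transporters, had log2 signals of 11.06, 11.28, 11.09 and 11.14 on the E2s+PROG arrays and of 6.33, 6.01, 5.76 and 5.51 on the PROG arrays. Its 4 E2s+PROG arrays stood nearly together and far above all PROG arrays, of which 2 of 4 were above background. The difference was 5.24 ± 0.15 (SE), at least 34.4-fold, with an adjusted p of 9.68e-23 in limma. A second probe for the gene differed by 3.07.

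GREB1 encodes a cofactor of the estrogen receptor and is itself an early target of that receptor. It measured 11.13, 10.57, 10.30 and 10.50 in E2s+PROG and 7.26, 6.77, 6.85 and 6.997 in PROG. Replicate 1 was the highest in each group, and the groups lay more than 3 units apart. The gene rose 12.6-fold (log2 3.66 ± 0.23 SE, adjusted p = 6.17e-13). Its 3 probes disagreed in size, with differences from 0.11 to 3.66.

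SUSD3, a membrane protein of estrogen-responsive breast cancer cells, gave 9.71, 9.86, 9.40 and 9.87 in E2s+PROG. In PROG it gave 6.49, 6.12, 5.93 and 6.05. Every E2s+PROG array was above every PROG array, and the gene rose 11.8-fold (log2 3.57 ± 0.20 SE, adjusted p = 1.56e-14).

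PGR itself rose from near background. Its signals were 8.58, 8.36, 7.90 and 7.94 in E2s+PROG and 5.38, 6.22, 6.37 and 5.44 in PROG, where 2 of 4 arrays were above background. The groups did not overlap, and PROG was the more spread of the pair (SD 0.51 against 0.33, n = 4). The rise was at least 4.20-fold (log2 2.34 ± 0.24 SE, adjusted p = 1.96e-08). It was the single member past the threshold among 23 tested steroid receptors and coregulators, beside 1.31% of all genes. ESR1, the estrogen receptor gene, did not pass, with means of 11.02 ± 0.21 (SD, n = 4) in E2s+PROG and 10.89 ± 0.06 in PROG and a difference of 0.13 (95% interval -0.23 to 0.49, adjusted p = 0.908).

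IGFBP4 encodes a secreted protein that binds insulin-like growth factors. Its signals were 12.12, 11.81, 11.41 and 11.86 in E2s+PROG and 9.29, 9.21, 8.98 and 8.72 in PROG. The 2 ranges were more than 2 units apart, and the gene rose 6.72-fold (log2 2.75 ± 0.28 SE, adjusted p = 1.85e-08). HSPB8, a small heat shock protein, measured 11.001, 11.04, 10.998 and 10.45 against 8.63, 7.52, 7.21 and 8.06. E2s+PROG replicate 4 was the low array of its group but still above all PROG arrays, and the rise was 8.09-fold (log2 3.02 ± 0.31 SE, adjusted p = 3.32e-08).

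TFF1, a secreted trefoil peptide, was above background on all PROG arrays. It went from 12.46, 12.49, 12.37 and 12.48 there to 14.18, 13.95, 13.68 and 13.82 in E2s+PROG. The PROG arrays were close together and all below E2s+PROG, with a rise of 2.75-fold (log2 1.46 ± 0.25 SE, adjusted p = 0.000372). MYB, a transcription factor gene of luminal cells, rose by less: 11.46, 11.65, 11.68 and 11.60 in E2s+PROG stood above 10.80, 11.04, 10.84 and 10.81 in PROG, and the difference was 0.72 ± 0.10 (SE, adjusted p = 2.44e-05). These were the members past the threshold among 24 tested luminal epithelial markers, beside 1.31% of all genes.

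Several further members of the estrogen-induced list rose. RAPGEFL1, a guanine nucleotide exchange factor, rose 4.76-fold. CCN5, a matricellular protein of the WNT-induced family, rose 3.21-fold, from signals between 8.53 and 8.94 to signals between 10.12 and 10.53. RERG, a small GTPase lost in some breast tumours, rose 2.34-fold, STC2, a secreted glycoprotein hormone, 2.30-fold, and CTSD, the lysosomal protease cathepsin D, 2.25-fold. RARA, the retinoic acid receptor alpha gene, rose by 1.13 on the log2 scale on the brighter probe and differed by 0.10 on the other, and its call was lost with the mean of the probes (adjusted p = 0.0863). OLFM1, ADCY9, PKIB, SIAH2 and CA12 rose by 1.00, 0.97, 0.96, 0.92 and 0.72 on the log2 scale. The call of CA12 was lost in 12 of 19 alternatives, among them leaving out any 1 of the 8 arrays, and that of OLFM1 in 4, among them leaving out E2s+PROG replicate 2. The 2 probes of OLFM1 differed by 0.30 and 1.00, and their mean did not pass, at 0.65 (adjusted p = 0.533).

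Not all well-known targets passed. CXCL12, the chemokine that ACKR3 binds, had signals of 6.31, 6.02, 5.84 and 6.28 in E2s+PROG and of 5.91, 5.48, 5.49 and 5.41 in PROG. The ranges overlapped at their edge, 3 of 4 and 0 of 4 arrays were above background, and the difference was 0.54 (95% interval 0.17 to 0.91, adjusted p = 0.221). BCL2, an inhibitor of apoptosis, differed by 0.54 (adjusted p = 0.355), MYC, a growth-promoting transcription factor, by 0.45 (adjusted p = 0.302), and CCND1, which encodes cyclin D1, by 0.22 (adjusted p = 0.718). For BCL2, MYC and CCND1 all E2s+PROG arrays were above all PROG arrays, as the arrays of 13.5% of all genes did not overlap. With E2 against vehicle, BCL2, MYC and CCND1 did not pass either, at 0.23, 0.13 and 0.19 (limma, adjusted p = 0.59, 0.69 and 0.44).

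**Figure D2:**
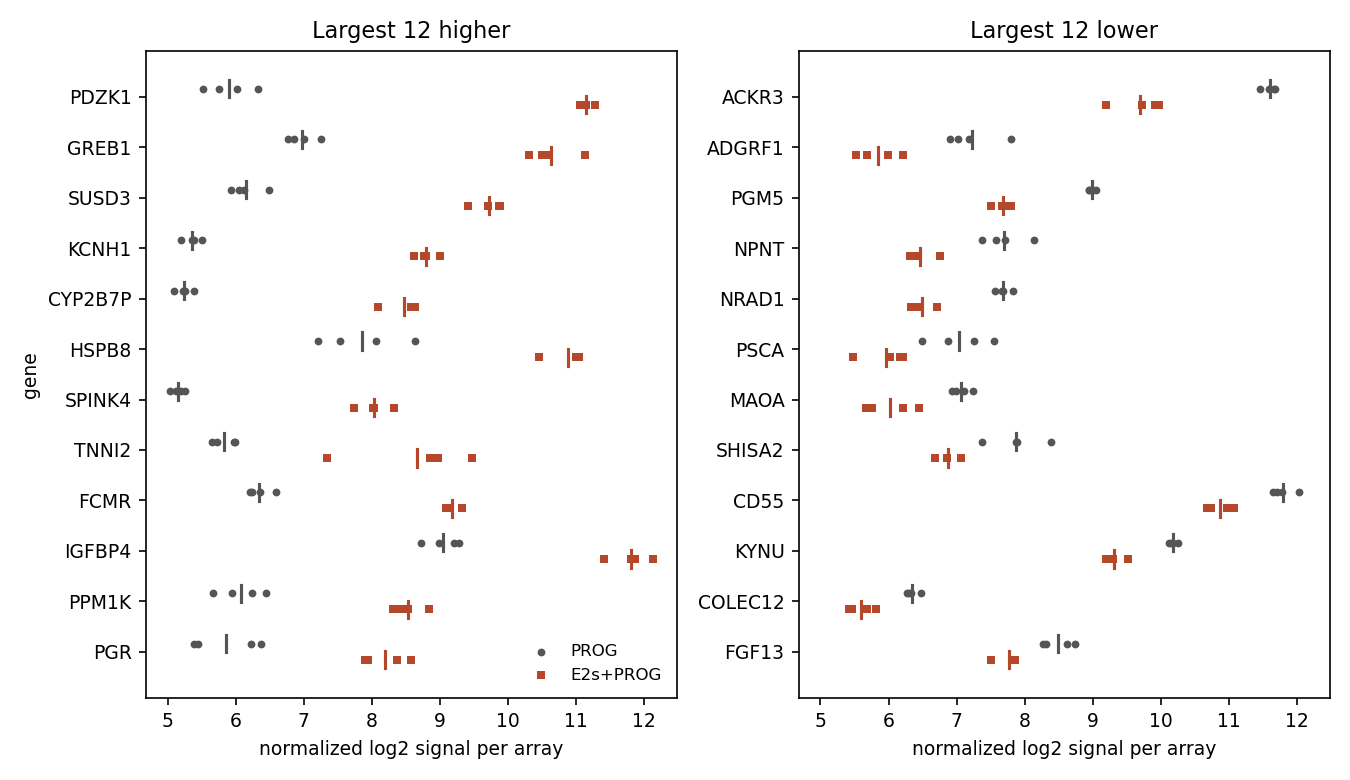
Normalized log2 signal of each array (x axis) for the 12 genes with the largest rise (left) and the 12 with the largest fall (right) among those past the threshold whose arrays do not overlap. Red squares are the 4 E2s+PROG arrays, grey circles the 4 PROG arrays and vertical bars the group means; PDZK1 shows the widest gap, and in the right panel the PROG arrays lie above the E2s+PROG arrays in every row.

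Potassium channel genes rose in part. Of 15 tested potassium channel genes, 5 were higher and 0 lower (1.16% of all genes were higher), although the list's median was 0.02. The list was chosen with earlier results of these data known, so this share may in part reflect the choice. KCNH1, a voltage-gated channel of the ether-a-go-go family, had signals of 9.003, 8.76, 8.62 and 8.79 in E2s+PROG and was not above background on any PROG array, at 5.51, 5.36, 5.19 and 5.39. All E2s+PROG arrays lay more than 3 units above all PROG arrays, a rise of at least 7.21-fold (log2 3.43 ± 0.19 SE, adjusted p = 1.56e-14).

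KCNQ3, which encodes a subunit of the M-type channel, measured 8.22, 7.71, 7.92 and 7.73 against 6.23, 6.68, 6.67 and 5.98. It rose 2.84-fold on the brighter probe (adjusted p = 1.12e-07), while its other probe differed by 0.32. KCNF1, a subunit that modifies other channels, rose from a mean of 9.07 ± 0.23 (SD, n = 4) to 10.36 ± 0.29, which is 2.43-fold (adjusted p = 0.000567). KCNK5 and KCNK6 encode background leak channels. KCNK5 was above background on 0 of 4 PROG arrays and rose at least 1.99-fold (adjusted p = 0.000229), and KCNK6 rose 1.63-fold (adjusted p = 0.0338). The call of KCNK6 was lost in 9 of 19 alternatives, which were median scaling, the mean of a gene's probes and leaving out any 1 array other than E2s+PROG replicate 2.

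ACOX2, a peroxisomal oxidase of branched-chain fatty acids and bile acid precursors, measured 11.62, 11.41, 11.45 and 11.20 in E2s+PROG and 9.11, 9.26, 9.02 and 8.999 in PROG. Both groups were tight, and the gene rose 4.99-fold (log2 2.32 ± 0.17 SE, adjusted p = 3.61e-11). FADS1, a fatty acid desaturase, rose 2.30-fold, from 7.70 ± 0.17 (SD, n = 4) to 8.90 ± 0.07 (adjusted p = 0.00103). The pair were the members past the threshold among 29 tested genes of fatty acid synthesis and oxidation, beside 1.31% of all genes. The list's median was -0.01.

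PPM1K, the mitochondrial phosphatase that activates breakdown of branched-chain amino acids, rose 5.45-fold on 1 probe (adjusted p = 7.3e-07) and differed by 0.26 on the log2 scale on the other. LSS, which encodes lanosterol synthase, was the member past the threshold among 20 tested genes of cholesterol synthesis and uptake. Its difference was 0.60 (adjusted p = 0.0183), and its 3 probes differed by 0.06 to 0.60. The call was lost in 8 of 19 alternatives, among them the mean of its probes, at 0.29 (adjusted p = 0.478). LSS also did not pass without E2s+PROG replicate 4, at 0.50 (adjusted p = 0.155), nor without E2s+PROG replicate 3, PROG replicate 1 or PROG replicate 4. PFKFB3, a regulator of glycolysis, was the member past the threshold among 29 genes of hypoxia and glycolysis, with a difference of 0.67 (adjusted p = 0.00906). It also did not pass without E2s+PROG replicate 4, at 0.59 (adjusted p = 0.0673), or without PROG replicate 1. The call of PFKFB3 was lost as well under median scaling (adjusted p = 0.138) and with the mean of its probes (adjusted p = 0.124). SLC7A2, a carrier of cationic amino acids, rose 1.85-fold (adjusted p = 3.3e-05) and was the member past the threshold among 14 amino acid transporters. Beside these single members, 1.31% of all genes passed, so LSS, PFKFB3 and SLC7A2 are results about single genes and not about their lists.

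Among growth factor ligands, receptors and their partners, 2 of 32 tested genes were higher and 1 lower, beside 1.16% and 0.148% of all genes. The higher genes were IGFBP4 and IRS1, the docking protein of the insulin and insulin-like growth factor receptors. IRS1 signals were 9.15, 8.80, 8.40 and 8.52 in E2s+PROG and 6.83, 7.13, 7.24 and 7.29 in PROG. They did not overlap, and the rise was 3.01-fold (adjusted p = 2.47e-06).

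In the WNT list, 2 of 22 tested genes were higher and 0 lower, beside 1.16% and 0.148% of all genes. LEF1, the transcription factor that acts with beta-catenin, measured 8.32, 8.35, 8.42 and 8.59 in E2s+PROG and 5.95, 6.57, 6.56 and 7.02 in PROG. Both of its probes rose, by 1.57 and 1.90 on the log2 scale (3.72-fold on the brighter one, adjusted p = 4.87e-06). CCN5 was the other member.

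Of 16 tested breast secretory genes, 4 were higher and 1 lower, beside 1.16% and 0.148% of all genes. SERPINA3, the serine protease inhibitor alpha-1-antichymotrypsin, measured 10.52, 10.37, 10.33 and 10.31 in E2s+PROG and 8.61, 9.09, 8.58 and 9.03 in PROG. It rose 2.95-fold (adjusted p = 2.84e-05) with no overlap between groups. SERPINA5, a related inhibitor, was above background on 2 of 4 PROG arrays and rose at least 1.83-fold (adjusted p = 0.000247), and LCN2, an iron-carrier-binding lipocalin, rose at least 1.46-fold (adjusted p = 0.0468). The call of LCN2 was lost in 13 of 18 alternatives, among them leaving out any 1 array other than PROG replicate 3. TFF1 was the fourth higher member and PSCA the lower one. SCGB1D2, a secretoglobin of breast epithelium, did not pass, at 14.17 ± 0.14 (SD, n = 4) against 13.88 ± 0.13 (adjusted p = 0.753).

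SPINK4, a secreted protease inhibitor of the Kazal family, is in none of the lists. Its signals of 8.33, 8.03, 8.01 and 7.73 in E2s+PROG stood against 5.19, 5.26, 5.04 and 5.13 in PROG. No PROG array was above background, so the rise was at least 4.22-fold (log2 2.87 ± 0.28 SE, adjusted p = 9.62e-09).

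CYP2B7P is a transcribed pseudogene of the cytochrome P450 family closely related to CYP2B6, and which of the pair bound the probe is uncertain. It measured 8.57, 8.64, 8.09 and 8.57 in E2s+PROG and 5.23, 5.25, 5.09 and 5.38 in PROG. None of the 4 PROG arrays was above background, and the rise was at least 5.74-fold (log2 3.23 ± 0.20 SE, adjusted p = 2.4e-13).

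TNNI2, the fast skeletal troponin I gene, was the most variable of the largest changes, at 7.35, 8.85, 8.97 and 9.47 in E2s+PROG and 5.65, 5.99, 5.97 and 5.72 in PROG. Replicate 1 was the low E2s+PROG array. With 2 of 4 PROG arrays above background, the gene rose at least 6.47-fold (adjusted p = 6.05e-08). FCMR, a receptor for the constant part of IgM, rose 7.07-fold, from 6.35 ± 0.18 (SD, n = 4) to 9.17 ± 0.10 (adjusted p = 3.98e-10).

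Other lists gave a single gene each or none, beside 1.31% of all genes past the threshold. BOK, a pro-apoptotic relative of BCL2, was the member past the threshold among 19 apoptosis regulators, with a rise of 2.17-fold (adjusted p = 2.53e-06). KRT15, a basal keratin, rose 2.01-fold (adjusted p = 0.000664), 1 of 8 tested basal markers. No member passed among the lists of steroid metabolism, ribosome biogenesis, CDK inhibitors, unfolded protein and amino acid stress, interferon response, metallothioneins and housekeeping genes.

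Cell cycle genes did not pass the test individually. Of 39 tested genes of the G1/S step and DNA replication, 0 were higher and 0 lower, beside 1.31% of all genes past the threshold. A positive difference was found for 36 of the 39, beside 6995 of all 12195 genes tested. The list's median was 0.27, beside 0.04 over all genes. LIG1, the replicative DNA ligase, was the nearest to the threshold in this list, with a difference of 0.54 (adjusted p = 0.0952, named after its value was seen). Of 32 mitotic genes 0 passed and 25 were positive, with a median of 0.09. In data simulated for this comparison the test recovered 17 of 50 genes changed by 0.5 on the log2 scale and 39 of 50 changed by 1. The simulation had independent noise for each gene and array and no change as small as 0.27. It therefore cannot say how often a shift of this size would be detected in these arrays.

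Of 26 tested progestin-induced genes 0 were higher and 0 lower, beside 1.31% of all genes past the threshold. Both groups are labelled as given progesterone, so this count does not measure the effect of progesterone itself. In this list 13 were positive, beside 6995 of all 12195 genes tested, and the median was 0.00, beside 0.04 over all genes. FKBP5, a cochaperone that binds steroid receptors and a common progestin target, measured 10.11, 9.94, 10.30 and 10.46 in E2s+PROG and 9.78, 9.68, 9.65 and 9.86 in PROG. All 4 E2s+PROG arrays were above all 4 PROG arrays, and the arrays of 13.5% of all genes did not overlap. FKBP5 did not pass, with a difference of 0.46 ± 0.13 (SE, 95% interval 0.18 to 0.73) and an adjusted p of 0.110. Its mean was 9.57 in vehicle, 9.74 in PROG and 11.39 in E2+PROG, so the PROG level was near that of vehicle.

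**Figure D3:**
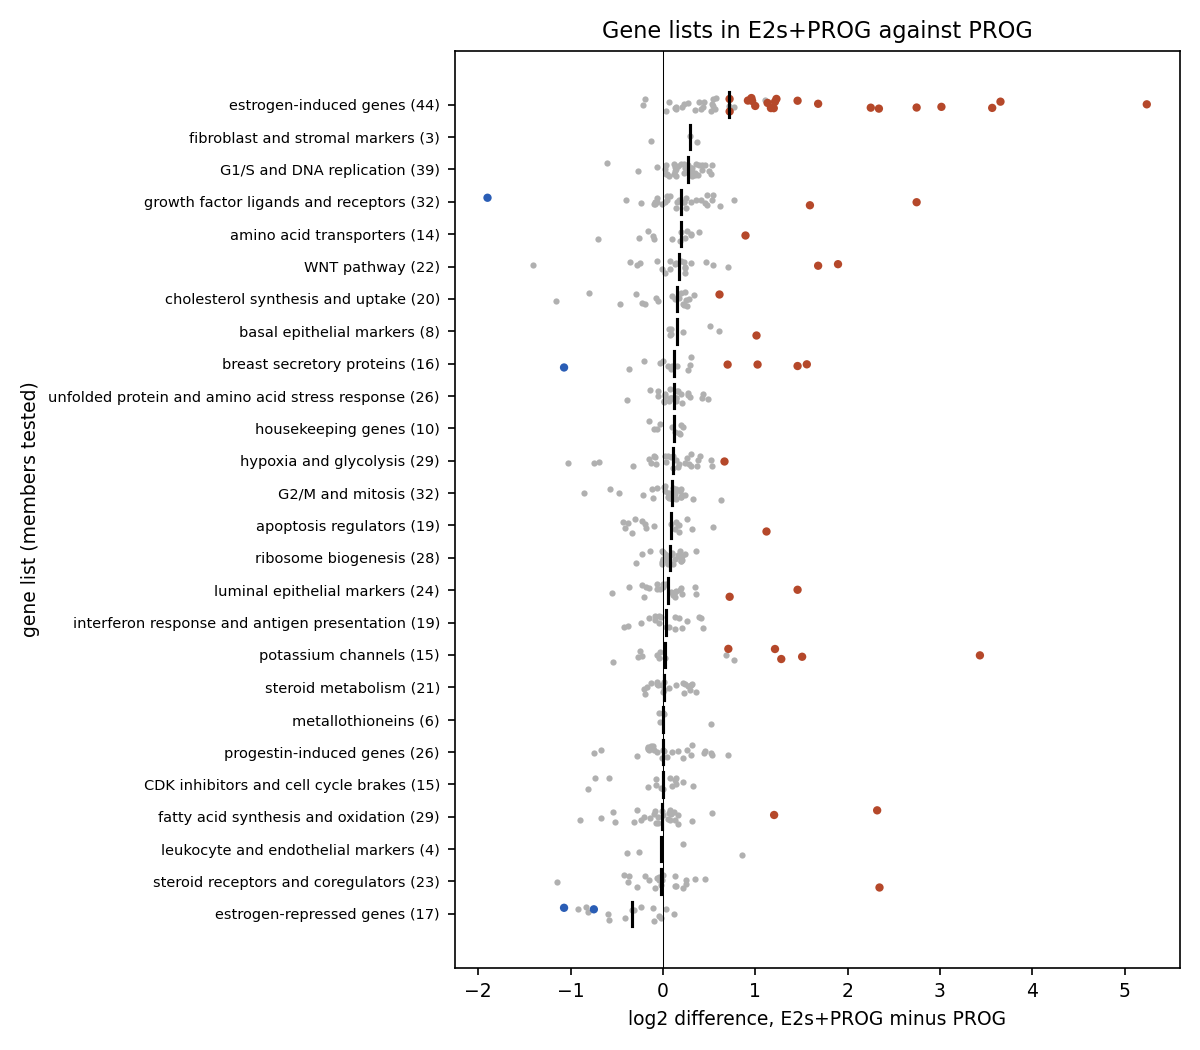
Each row is 1 gene list with the number of its members tested, each point the log2 difference (E2s+PROG minus PROG, x axis) of 1 member, and each vertical bar the list's median. Red points are higher and blue points lower at an adjusted p under 0.05; the estrogen-induced list has the highest median, 0.72, and the estrogen-repressed list the lowest, -0.34.

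Fewer genes fell. The largest fall was in ACKR3, an atypical chemokine receptor that takes up CXCL12 without signalling through G proteins. It measured 9.96, 9.73, 9.91 and 9.19 in E2s+PROG and 11.66, 11.59, 11.68 and 11.45 in PROG. Replicate 4 was the lowest array in both groups, no arrays overlapped, and the level in PROG was 3.73-fold higher (log2 difference -1.90 ± 0.22 SE, adjusted p = 2.19e-07).

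PGM5, a phosphoglucomutase-related protein of cell adhesion sites, had signals of 7.80, 7.67, 7.50 and 7.76 against 9.04, 9.004, 8.94 and 8.95 in PROG. All 3 of its probes were lower, by 0.88 to 1.39 in size, and on the brightest the level in PROG was 2.47-fold higher (adjusted p = 8.61e-05). ADGRF1, an adhesion G protein-coupled receptor, was above background on 3 of 4 E2s+PROG arrays and was at least 2.28-fold higher in PROG (adjusted p = 0.0015). NPNT, which encodes the integrin ligand nephronectin, and NRAD1, a long non-coding RNA, were 2.35-fold and 2.29-fold higher in PROG (adjusted p = 0.00399 and 0.000504).

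MAOA, a mitochondrial monoamine oxidase, measured 5.68, 5.76, 6.21 and 6.45 in E2s+PROG and 6.99, 7.24, 6.92 and 7.10 in PROG. With 2 of 4 E2s+PROG arrays above background, it was at least 1.90-fold higher in PROG (adjusted p = 0.00255). SHISA2, a modulator of WNT and FGF receptors, was 2.01-fold higher in PROG (adjusted p = 0.0015).

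CD55, which protects cells from complement, fell by 0.92 on the log2 scale (adjusted p = 0.0198), and it did not pass without E2s+PROG replicate 4, at -0.86 (adjusted p = 0.0981), nor without E2s+PROG replicate 1, PROG replicate 1 or PROG replicate 4. KYNU, the tryptophan-degrading enzyme kynureninase, fell by 0.86 (adjusted p = 0.0146) and did not pass without E2s+PROG replicate 1, E2s+PROG replicate 2 or PROG replicate 1. FGF13, an intracellular protein that binds sodium channels, fell by 0.72 (adjusted p = 0.00771) and did not pass without E2s+PROG replicate 1 or PROG replicate 3. Its call was also lost with the mean of its probes (adjusted p = 0.16). CD55 and KYNU also did not pass under median scaling (adjusted p = 0.124 and 0.307) or with the authors' processed values (adjusted p = 0.142 and 0.0666). Outside columns 13 to 24, KYNU did not pass either (adjusted p = 0.0544).

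Of 17 tested members of a list of estrogen-repressed genes, 2 were lower and 0 higher (0.148% of all genes were lower). A positive difference was found for 2 of 17, beside 6995 of all 12195 genes tested, and the median was -0.34. The lower members were PSCA and COLEC12. PSCA, a surface antigen attached through a lipid anchor, measured 6.02, 5.47, 6.17 and 6.21 in E2s+PROG and 7.54, 6.49, 6.87 and 7.26 in PROG, at least 1.94-fold higher in PROG (adjusted p = 0.0119). It did not pass without E2s+PROG replicate 2, PROG replicate 1 or PROG replicate 4. COLEC12, a scavenger receptor with a collagen-like stem, was above background on 0 of 4 E2s+PROG and 4 of 4 PROG arrays and was at least 1.31-fold higher in PROG (adjusted p = 0.0124). Its call was lost without E2s+PROG replicate 2, E2s+PROG replicate 3 or PROG replicate 2. The call was also lost without background correction (adjusted p = 0.0673), under median scaling (adjusted p = 0.0606) and with the authors' processed values (adjusted p = 0.0537).

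The same genes were then read in cells given E2 alone against vehicle, which share no array with E2s+PROG and PROG. The arrays of these groups were more spread: on the component named above, vehicle replicate 1 scored -53.8 and the other vehicle arrays -12 to 42.2, and the E2 arrays scored -29.4 and -25.8 within columns 13 to 24 and 23.3 and 32 outside them. The lowest correlation between vehicle arrays was 0.915. There 227 genes passed (1.86%), 145 of them higher (1.19%) and 82 lower (0.672%). In the same direction, 107 genes passed in both comparisons, which is 66.9% of the 160 genes and 47.1% of the 227, and 0 passed in opposite directions. Of the 142 higher genes 95 were also higher with E2, and of the 18 lower genes 12 were also lower. Without E2s+PROG replicate 4 the shared count was 100. With columns 13 to 24 as a block, 1516 genes passed with E2 against vehicle and 137 were shared, and outside those columns, where 2 E2 and 3 vehicle arrays remain, 1275 passed and 99 were shared. Without vehicle replicate 2, 555 genes passed with E2 against vehicle. When each comparison was fitted to its own arrays alone, 67 genes passed with E2 against vehicle, 298 with E2s+PROG against PROG, and 59 in both.

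Sizes were alike for most large changes. PDZK1 differed by 5.24 in E2s+PROG against PROG and by 5.43 with E2 against vehicle, GREB1 by 3.66 and 3.76, KCNH1 by 3.43 and 3.56, ACOX2 by 2.32 and 2.36, and ACKR3 by -1.90 and -1.43. In all, 157 of the 160 genes had the same sign with E2 alone (98.1%), beside 43.7% of all genes tested. Across the 160 genes the log2 differences correlated with r = 0.9169, and across all 12195 genes with r = 0.0139. Genes are not independent replicates, and within each comparison they share its 8 arrays.

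Whether the 2 responses differed was tested as an interaction, the E2s+PROG response over PROG minus the E2 response over vehicle. No gene passed (0 of 12195, limma), with 1119 genes at an unadjusted p under 0.05 and a smallest adjusted p of 0.0657. That value belonged to GRPR, the gastrin-releasing peptide receptor, which differed by 1.92 in E2s+PROG against PROG and by 0.64 with E2 against vehicle and is named after its value was seen. Restricted to the arrays outside columns 13 to 24, 291 genes passed, 112 with a larger and 179 with a smaller value in the E2s+PROG response. The interval of the difference was -0.61 to 0.24 for PDZK1, -0.78 to 0.57 for GREB1 and -0.995 to 0.46 for TFF1.

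PGR and CXCL12 were lower in this contrast without passing it. PGR rose by 2.34 in E2s+PROG against PROG and by 3.21 with E2 against vehicle, a difference of -0.87 (95% interval -1.55 to -0.19, adjusted p = 0.499). CXCL12 rose with E2 alone, from 5.50, 5.51, 5.53 and 5.43 in vehicle, all below background, to 7.24, 6.99, 7.48 and 6.85, a rise of at least 2.18-fold (adjusted p = 1.2e-07). Its interaction was -1.11 (95% interval -1.63 to -0.59, adjusted p = 0.499).

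**Figure D4:**
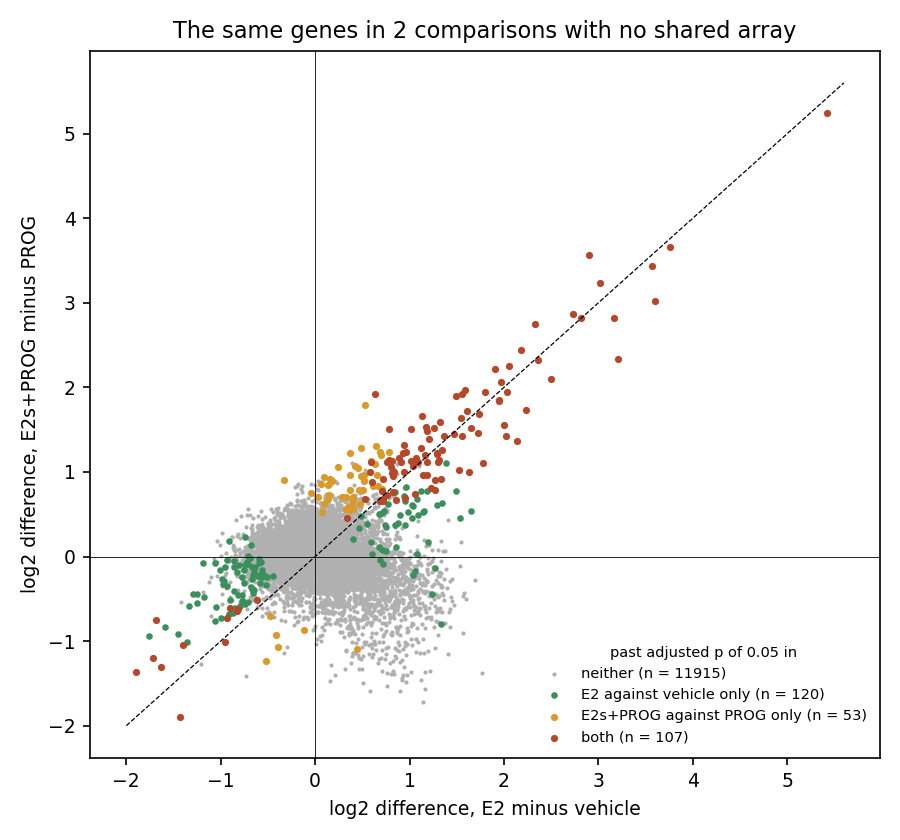
Each point is 1 gene, with its log2 difference between E2 and vehicle on the x axis and between E2s+PROG and PROG on the y axis; the dashed line marks equal values. The 107 genes past the threshold in both (red) have the same sign in both, and some lie off the line, such as GRPR at 0.64 and 1.92. In E2s+PROG against PROG only, 53 passed (orange), and 120 passed with E2 against vehicle only (green).

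E2s+PROG was also set directly against E2+PROG, the other group labelled as estradiol with progesterone. Measured over the same PROG arrays, the difference of the 2 responses is the difference of these groups. The E2+PROG arrays scored -34 and -24.1 on the same component within columns 13 to 24 and 23.2 and 34.9 outside them. The difference passed for 212 genes (1.74%), 47 higher in E2s+PROG (0.385%) and 165 lower (1.35%). Of the 142 genes that E2s+PROG raised over PROG, 113 did not pass in this contrast (median difference 0.06), 11 were higher and 18 lower in E2s+PROG than in E2+PROG. Of the 165 genes lower in E2s+PROG than in E2+PROG, 144 had not passed against PROG. The count was 187 without E2s+PROG replicate 4, 137 without E2+PROG replicate 4 and 109 outside columns 13 to 24, where 2 E2+PROG arrays remain.

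The largest differences were in PHACTR3, AKR1C2, P3H2 and NELL2, all lower in E2s+PROG. PHACTR3, a regulator of protein phosphatase and actin, measured 5.32, 5.31, 5.61 and 5.596 in E2s+PROG, all below background, and 8.83, 9.51, 8.80 and 9.66 in E2+PROG. In PROG it was at 5.43, 5.50, 5.15 and 5.40, also below background. Its level in E2+PROG was at least 9.46-fold that in E2s+PROG (log2 difference -3.74 ± 0.18 SE, adjusted p = 1.13e-15).

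AKR1C2 encodes a hydroxysteroid dehydrogenase that reduces steroids, and its near-identical relatives may share the probe's signal. It read 5.71, 5.81, 5.57 and 5.83 in E2s+PROG, none of them above background, and 9.07, 9.33, 8.94 and 9.35 in E2+PROG. The level was at least 9.30-fold higher in E2+PROG (adjusted p = 1.51e-15), while E2s+PROG and PROG differed by -0.06 (adjusted p = 0.958).

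P3H2, a collagen prolyl hydroxylase, took a middle position. Its signals were 7.37, 6.87, 7.58 and 7.72 in E2s+PROG, 6.74, 6.07, 6.18 and 6.32 in PROG and 10.42, 10.77, 10.61 and 10.73 in E2+PROG. It was 2.08-fold higher in E2s+PROG than in PROG (adjusted p = 0.00206) and 9.51-fold higher in E2+PROG than in E2s+PROG (adjusted p = 5.25e-13). NELL2, a secreted protein with EGF-like repeats, read 7.33, 6.62, 7.81 and 7.78 in E2s+PROG, within reach of 7.84, 7.78, 8.10 and 7.65 in PROG, and 10.55, 10.71, 10.47 and 10.81 in E2+PROG. It was 9.50-fold higher in E2+PROG (adjusted p = 7.64e-13).

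The largest differences in the other direction were in BPIFB1, PIP, PLAAT4 and SPINK4. BPIFB1, a secreted lipid-binding protein, measured 11.39, 11.37, 11.14 and 11.38 in E2s+PROG and 9.06, 9.54, 9.002 and 9.21 in E2+PROG, 4.34-fold lower there (adjusted p = 4.84e-12). PIP, the prolactin-induced secretory protein, was 3.76-fold higher in E2s+PROG than in E2+PROG (means of 13.53 ± 0.15 SD and 11.62 ± 0.08 SD, n = 4, adjusted p = 9.82e-08). Neither differed past the threshold from PROG, with adjusted p of 0.842 and 0.887.

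PLAAT4, a retinoid-inducible phospholipase of the acyltransferase family, was 2.95-fold higher in E2s+PROG than in E2+PROG (adjusted p = 0.000396) and differed from PROG by -0.02. SPINK4 was 2.84-fold higher in E2s+PROG than in E2+PROG (adjusted p = 0.000982), where its signals were 6.23, 6.71, 6.51 and 6.62.

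Among the genes described above as higher in E2s+PROG than in PROG, PDZK1 and KCNH1 were also higher than in E2+PROG. They differed by 1.03 and 1.50 on the log2 scale (adjusted p = 1.95e-05 and 1.65e-06). SERPINA3, KCNQ3, FADS1 and CCN5 were lower in E2s+PROG than in E2+PROG, by 2.19, 1.43, 1.43 and 1.03 in size (adjusted p = 4.61e-08, 3.03e-07, 9.11e-05 and 0.00436). FKBP5 was 2.28-fold lower in E2s+PROG than in E2+PROG (adjusted p = 2.21e-07). ESR1 was 1.92-fold higher in E2s+PROG than in E2+PROG (adjusted p = 0.00113), and MYB 1.41-fold higher (adjusted p = 0.00542). The call of ESR1 was lost under median scaling (adjusted p = 0.0873), that of CCN5 outside columns 13 to 24 (adjusted p = 0.115), and that of MYB in both of these settings and with the compared groups alone. GREB1, PGR and IGFBP4 did not pass, with intervals of the log2 difference of -1.05 to -0.10, 0.33 to 1.29 and -0.09 to 1.04.

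**Figure D5:**
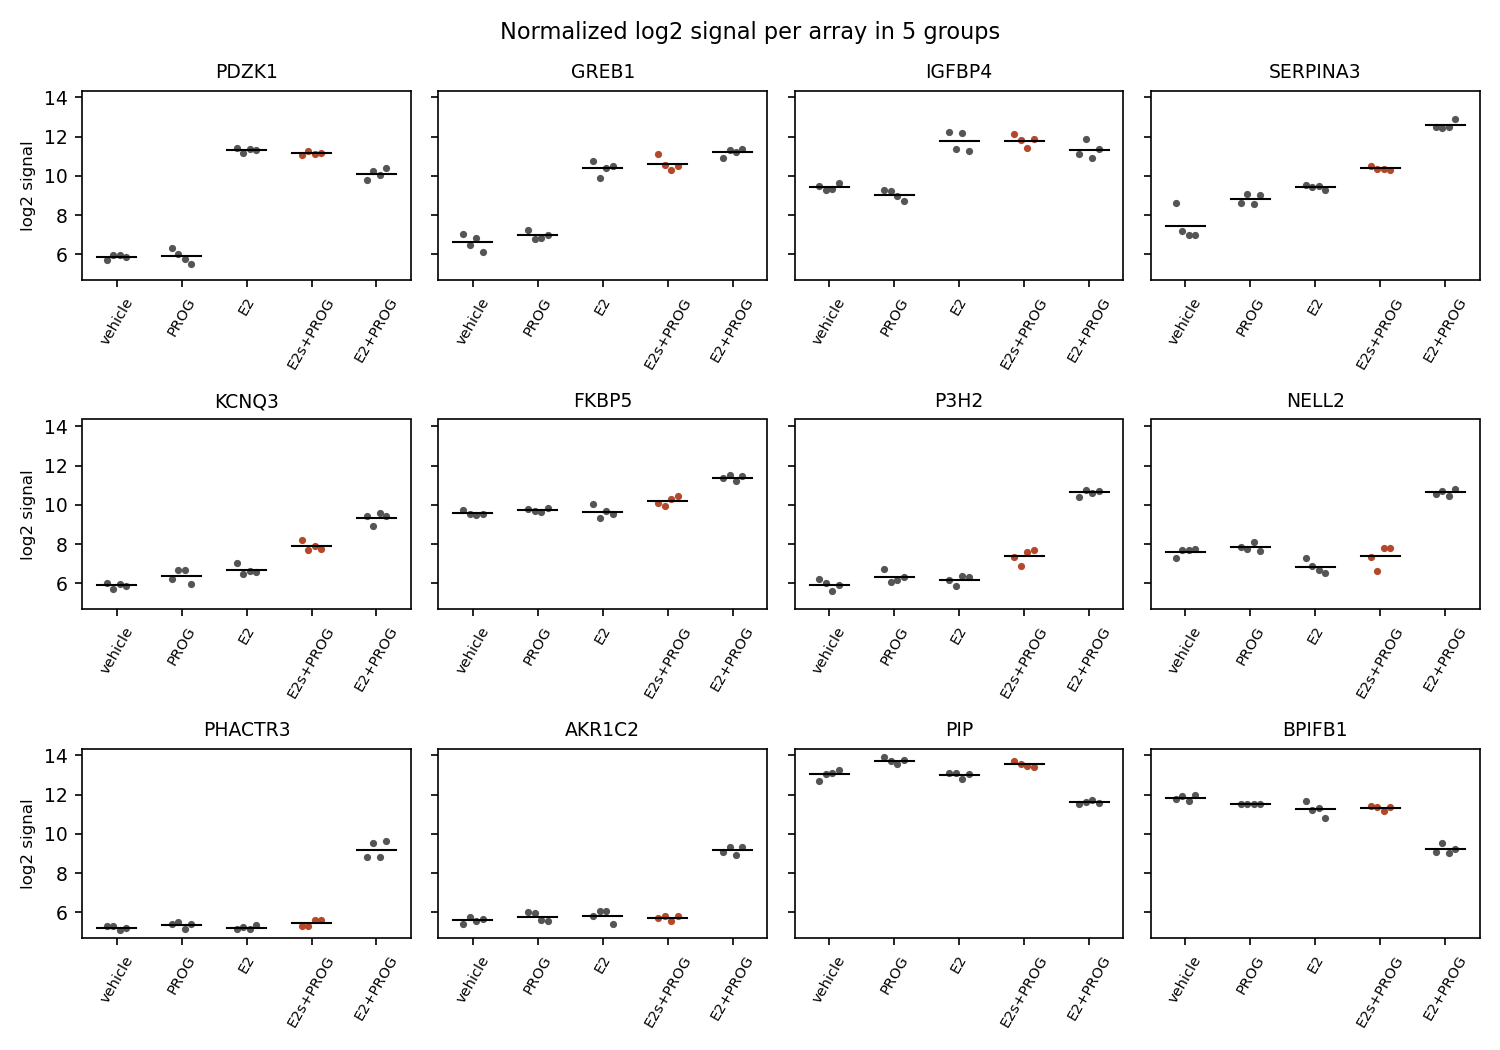
Normalized log2 signal (y axis) of 12 genes on each array of 5 groups (x axis), with the 4 E2s+PROG arrays in red, the other arrays in grey and horizontal bars at the group means. For PDZK1, GREB1 and IGFBP4 the E2s+PROG arrays stand with the E2 arrays. For PHACTR3, AKR1C2, PIP and BPIFB1 they stand away from the E2+PROG arrays, with a mean nearer to each of the vehicle, PROG and E2 means.

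The promoters of the higher genes were searched for the palindromic estrogen response element, GGTCA, any 3 bases and TGACC, in the 250 bases before each gene's start in the RefSeq table (GRCh38.p14). Both strands read the same motif. Of the 142 higher genes 107 had a promoter there. Among these, none held the full motif and 1 held it with at most 1 mismatch (0.935%). Over all 27305 promoters listed, 0.0513% held the full motif and 0.842% held it with at most 1 mismatch, and over the 9964 tested genes with a promoter the shares were 0.0301% and 0.622%. None of the 14 lower genes with a promoter had a match.

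The match lay before ADAMTSL5, which encodes a secreted protein of the extracellular matrix, at chr19:1513020-1513269 on the minus strand. It is printed because it was the only match among the higher genes, and so was chosen after the search. The capitals mark the motif, at positions -221 to -209 relative to the gene's start, with 1 mismatch.
ADAMTSL5: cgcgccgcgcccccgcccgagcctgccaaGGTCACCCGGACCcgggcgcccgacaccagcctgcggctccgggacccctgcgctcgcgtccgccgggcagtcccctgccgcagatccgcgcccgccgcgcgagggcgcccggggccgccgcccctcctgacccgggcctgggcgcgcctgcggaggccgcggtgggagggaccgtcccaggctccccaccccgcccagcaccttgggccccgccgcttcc
ADAMTSL5 measured 7.40, 7.72, 7.89 and 7.75 in E2s+PROG and 5.88, 6.54, 6.47 and 5.77 in PROG. The groups did not overlap, 2 of 4 PROG arrays were above background, and the rise was at least 2.76-fold (log2 1.52 ± 0.27 SE, adjusted p = 0.000514). A match in letters is a description of the sequence and not of receptor binding.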

How the data were processed

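Biotinylated cRNA from 36 samples, 4 in each of 9 groups, was read on Illumina arrays, per the labels. For each of 48803 probes and each array, the deposited table holds an unnormalized intensity and a detection p-value, per the file headers. The software and settings behind that table are not given in the sources used here. The deposited processed intensity table was, on each array, a straight line of the unnormalized intensity (r = 1, slopes 0.324 to 1.573), and served as an alternative. Array columns were matched to samples by their labels, and 0 columns belonged to other samples.

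The unnormalized intensity was normalized with limma 3.58.1 under R 4.3.3 (neqc: background from the detection p-values, offset 16, quantile normalization, log2). Probes with a detection p under 0.05 on at least 4 arrays were kept. Of all probes, 27578 had 1 gene symbol in the platform annotation, 13 had several and 21212 none, and 27541 matched the reference gene table. The brightest kept probe stood for its gene, leaving 12195 genes, of which 3207 had several kept probes. A limma model with 1 mean per group over all 36 arrays (27 residual degrees of freedom) gave every contrast, adjusted by Benjamini-Hochberg with a threshold of 0.05. The number of arrays limits the precision. A gene counted as above background on an array if any of its probes had a detection p under 0.05. Where that failed on some array of the dimmer group, the fold is a lower bound, taken per array against the higher of the gene's signal and the lowest signal above background (5.895 to 6.001 on the 8 arrays).

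Named genes are the 12 largest changes per direction without overlap between arrays, up to 4 per list past the threshold, 15 steroid-response genes of which 1 is not analysed here, and the 4 largest per direction against E2+PROG and in the interaction. Genes outside this rule are members of the lists given as counts, or are said to be chosen after their values were seen. The comparison, the 26 lists (496 of 602 symbols tested, 47 in more than 1 list), the rule and the tests were chosen with earlier results of these data known. Replicate numbers were not taken to pair samples, so no block was used in the reported fit. Alternatives were another background correction, scaling, probe filter, probe summary, variance model, block, fit and array set. Data were simulated for E2s+PROG against PROG (12195 genes) with independent noise for each gene and array. Of genes changed by 0.5 on the log2 scale 17 of 50 were recovered, 39 of 50 at 1, 45 of 50 at 2 and 50 of 50 at 3. Of the calls in the simulated data, 9 of 160 were unchanged genes. Promoters came from a RefSeq table (GRCh38.p14).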

Additional observations from a re-analysis of the deposited data

Results flagged for a closer look

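Single arrays stood away from the other 3 of their group in 9 of 116 groups of 4 values looked at, and chance alone gives about 5% by this measure, Dixon's ratio of the gap to the range. E2s+PROG replicate 4 did so on the leading component of the variation within groups, at -28.3, with the nearest other array at 6.22, and PROG replicate 1 did so on the same component at 5.96, with the nearest at -1.34. In single genes, E2s+PROG replicate 4 was low for HSPB8 (10.45, nearest 10.998). E2s+PROG replicate 3 was low for CYP2B7P (8.09, nearest 8.57), for CCN5 (10.12, nearest 10.47) and for BPIFB1 (11.14, nearest 11.37). E2s+PROG replicate 1 was low for FGF13 (7.497, nearest 7.83). PROG replicate 2 was high for MYB (11.04, nearest 10.84), and PROG replicate 1 was high for CXCL12 (5.91, nearest 5.49).

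The change over PROG differed between E2s+PROG and E2+PROG, by the direct test of the pair, in the 8 genes with the largest such differences. It was higher in E2s+PROG by 2.12 on the log2 scale for BPIFB1, 1.91 for PIP, 1.56 for PLAAT4 and 1.51 for SPINK4. The difference was -3.74 for PHACTR3, -3.45 for AKR1C2, -3.25 for P3H2 and -3.25 for NELL2.

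Probes without a single gene name were left out of the gene tests. Of 4742 such probes, 22 passed the threshold in E2s+PROG against PROG, 19 higher and 3 lower, with a largest difference of 1.94.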

How the results depend on the processing

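Of the 42 named genes past the threshold in E2s+PROG against PROG, 35 stayed past it in the same direction under all alternatives run. The exceptions were PSCA, CD55, KYNU, COLEC12, FGF13, LSS and PFKFB3, and no named gene reversed. The 13 named genes that did not pass stayed so, and the 8 named against E2+PROG kept their calls. Sizes moved: of the 42, 22 differed by more than 1.5 times in fold without background correction, 4 with the mean of a gene's probes and 2 with the authors' processed values, and none under the other alternatives. Among other genes the text names, chosen after seeing the data, LCN2, CA12, CYP1A2, KCNK6 and CBLN2 lost their call against PROG in 13, 12, 11, 9 and 7 alternatives, OLFM1 in 4, KRT80 in 2 and RARA, ADCY9 and PKIB in 1 each. Fitted to the compared groups alone, 298 genes passed against PROG, 137 against E2+PROG, 67 with E2 against vehicle and 59 in the same direction in both E2 comparisons. Median scaling gave 114 against PROG, 101 against E2+PROG and 140 with E2 against vehicle. Of the 140, 86.4% were higher, beside 63.9% in the reported fit. Median scaling also moved the median of all genes in E2 against vehicle from -0.02 to 0.10. Against PROG, 211 genes passed with the authors' processed values, 190 with columns 13 to 24 as a block and 154 outside those columns. Outside columns 13 to 24, 109 passed against E2+PROG, 1275 with E2 against vehicle and 291 in the interaction, and with those columns as a block 1516 passed with E2 against vehicle. The causes were not tested, beyond the smaller number of arrays or the changed scale that defines each setting. Leaving out 1 array at a time gave 128 to 149 genes against PROG, 137 to 191 against E2+PROG, 156 to 555 with E2 against vehicle, 0 to 1 in the interaction, 18 to 20 estrogen-induced genes and 95 to 115 shared genes, the last 2 counts being alternatives chosen after seeing the data. Over the other settings the estrogen-induced count ran from 16 to 23. Same-numbered E2s+PROG and PROG arrays deviated with r of 0.238, -0.0379, -0.125 and 0.106, so the numbers were not taken as pairing; with the replicate block 162 genes passed against PROG (150 of them among the 160), 203 against E2+PROG, 233 with E2 against vehicle, 0 in the interaction, and 20 and 108 for the last 2 counts. Signals near background limit the precision of dim genes, for which only bounds are given.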

Other observations

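Several further genes past the threshold in E2s+PROG against PROG are in none of the accounts above or only touched there. All of them were chosen after their values were seen, so they stand for no group of genes. ADCY1, an adenylyl cyclase, was 3.87-fold higher, with signals of 10.24, 9.78, 9.78 and 9.82 against 8.06, 7.69, 8.07 and 7.995. ADRA2A, an adrenergic receptor that inhibits adenylyl cyclase, was at least 2.91-fold higher, GRPR at least 2.94-fold and RAMP1, a partner of the calcitonin receptor-like receptor, 3.58-fold. ADCY1 was also higher in E2s+PROG than in E2+PROG, by 1.16 on the log2 scale (adjusted p = 0.000103).

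SCNN1G, SCNN1B and SCNN1A encode subunits of the epithelial sodium channel. SCNN1G was not above background on any PROG array and was at least 2.64-fold higher in E2s+PROG (adjusted p = 1.26e-09), and SCNN1B was 2.17-fold higher (adjusted p = 0.000316), while SCNN1A differed by 0.26 on the log2 scale (adjusted p = 0.679). TIPARP, an ADP-ribosyltransferase that represses the aryl hydrocarbon receptor, rose 2.72-fold, from between 10.19 and 10.42 to between 11.61 and 11.94 (adjusted p = 5.49e-10). CYP1A2, a target of that receptor, was above background on 3 PROG arrays and on no E2s+PROG array, at least 1.14-fold higher in PROG (adjusted p = 0.0464), a call that was lost in 11 of 18 alternatives, among them leaving out any 1 array other than PROG replicate 1 or PROG replicate 3. CYP1A1, another target, differed by -0.04 (adjusted p = 0.978).

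The keratin KRT80 was lower in E2s+PROG than in PROG (log2 difference -0.61, adjusted p = 0.0023) and lower than in E2+PROG (-1.51, adjusted p = 8.16e-11). CBLN2, a secreted synaptic organizer, was lower than in PROG (-0.62, adjusted p = 0.0359) and higher than in E2+PROG (1.23, adjusted p = 2.74e-06). Against PROG, the call of KRT80 was lost in 2 of 19 alternatives, median scaling and the mean of its probes. The call of CBLN2 against PROG was lost in 7 of 19, among them leaving out E2s+PROG replicate 1, E2s+PROG replicate 2 or PROG replicate 1, 3 or 4.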
